A study of Mus musculus with 20 samples.

Results

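The ribosomal proteins of the cytoplasmic ribosome were followed in fetal mouse hearts after exposure of the pregnant dams to TCDD, the dioxin that activates the aryl hydrocarbon receptor. The genes were chosen from the array annotation alone: probe sets whose single symbol was Rpl or Rps followed by a digit, or Rplp0, Rplp1, Rplp2 or Rpsa, with the Rps6k kinases left out. That gave 49 probe sets for 35 genes, among 12422 probe sets and 8251 genes with a single symbol, and each gene was represented by its brightest probe set. Of the 35 genes, 17 encode proteins of the large subunit and 18 proteins of the small subunit. A filter on low signal, which asked for at least 4 arrays at or above their own 40th percentile, kept 26 of the genes, 13 of each subunit, and 8097 probe sets in all. The other 9 genes are described by their signals only.

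Each array measured total RNA of whole hearts collected on gestation day 17.5 on an Affymetrix U74Av2 array. Controls received corn oil by oral gavage on gestation day 14.5 (8 arrays), and the exposed groups received 1.5, 3 or 6 µg/kg TCDD on the same day (4 arrays each, 20 in all); 1 of the 1.5 µg/kg arrays has its treatment day written in a form that was not used here. The design text gives 4 replicates for each dose, whereas the titles number the controls 1 to 8, so the control numbers 1 to 4 and 5 to 8 were also compared with each other. Neither the strain nor the number of hearts and litters behind an array is given, so every p-value measures the spread between these arrays only.

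A ribosome is built from a small subunit, which reads the messenger RNA, and a large subunit, which joins the amino acids. Their proteins are made in matched amounts, and their mRNAs are among the most abundant of a growing cell. Most of these mRNAs begin with a run of pyrimidines, the terminal oligopyrimidine or TOP motif, through which mTOR signalling sets how strongly they are translated. The fetal heart is a growing organ late in gestation, and its muscle cells still divide.

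The starts of several of these genes are shown because the TOP run lies there. Each window holds 15 bases on either side of an annotated start, 5′ to 3′ on the gene's strand, from RefSeq on build GRCm38.p6, and capitals mark the longest run of C and T in the window. Long runs stood at the starts of Rpl7a (chr2:26910792-26910821, plus strand), Rps10 (chr17:27635230-27635259, minus), Rpl13a (chr7:45128731-45128760, minus), Rps18 (chr17:33955651-33955680, minus), Rps24 (chr14:24490663-24490692, plus) and Rps27 (chr3:90213634-90213663, minus). Only short runs were found in the windows of Rpl37a (chr1:72711245-72711274, plus), Rpl41 (chr10:128549154-128549183, minus), Rps4x (chrX:102189377-102189406, minus) and Rps3a1 (chr3:86142654-86142683, minus). The printed genes are examples. Genes described below for their differences stand on both sides, Rps27 among those with long runs. No relation between the runs and the signals was tested.
Rpl7a: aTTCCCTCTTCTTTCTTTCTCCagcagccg
Rps10: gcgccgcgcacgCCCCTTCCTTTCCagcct
Rpl13a: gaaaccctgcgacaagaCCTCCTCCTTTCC
Rps18: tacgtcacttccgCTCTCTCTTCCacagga
Rps24: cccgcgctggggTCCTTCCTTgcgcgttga
Rps27: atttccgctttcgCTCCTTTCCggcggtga
Rpl37a: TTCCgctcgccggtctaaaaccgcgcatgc
Rpl41: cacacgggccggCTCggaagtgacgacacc
Rps4x: ctgaggctgggcggagcaacccaggCTCCa
Rps3a1: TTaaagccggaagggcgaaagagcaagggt

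Inside the window the run was 21 bases long at Rpl7a, 13 at Rps10 and Rpl13a, 11 at Rps18 and 9 at Rps24 and Rps27. It was 4 at Rpl37a and Rps4x, 3 at Rpl41 and 2 at Rps3a1. The runs of Rpl37a, Rps3a1 and Rpl13a reach an edge of the window, so their lengths are only those inside it. Rps24 has another annotated start (chr14:24490738-24490767), where the longest run was 4 bases; the other genes printed have 1 start each in the table. Promoter windows of 300 bases (250 before and 50 after a start) were found for 28 of the 35 genes. A run of 8 or more C or T within 15 bases of a start was present in 11 of the 28 (39.3%), against 15.5% of the 4920 genes with tested probe sets that were in the table and 13.9% of all 27025 genes in it. The first 5 transcribed bases were C or T beginning with C in 5 of the 28 (17.9%), against 2.97% and 3.01%. These shares describe the annotated starts. GCGTG, the core that the aryl hydrocarbon receptor binds, was found on either strand in 17 of the 28 windows (60.7%), against 56.9% of the genes with tested probe sets. CCGGAAG, an ETS-type motif, was found on either strand in 12 of the 28 (42.9%), against 19.9%, and TCTCGCG in 6 of the 28 (21.4%), against 6.48%. TCTCGCG and GCGTG can share the letters GCG where they meet, and a match is a description of letters only.

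The arrays were alike in some facts that bear on these genes and uneven in others. MAS5 signals, the scanner summary deposited for each probe set, were rescaled to a trimmed mean of 500 per array, and pairs of arrays correlated at 0.957 to 0.986 over log2 signals. The 26 tested genes together made up 2.38% to 3.02% of the summed signal of an array. The mean log2 3′ to 5′ ratio of the β-actin and Gapdh control probe sets was uneven between groups. It was 0.12 ± 0.09 (SD, n = 8) in controls and -0.00 ± 0.05 (n = 4) at 1.5 µg/kg. At 3 and 6 µg/kg it was 0.07 ± 0.05 and 0.11 ± 0.04. The log2 3′ to middle ratio of β-actin ran from 0.35 to 1.34 over the arrays. Exposure was visible in Cyp1a1, the enzyme gene induced by the aryl hydrocarbon receptor, at 39.6 ± 23.0 (SD, n = 8) in controls, 224 ± 134 (n = 4) at 1.5, 275 ± 90.3 at 3 and 507 ± 150 at 6 µg/kg (limma adjusted p = 0.00681, 5.73e-04 and 1.97e-06). The heart was recognised by its defining markers on every array: Myh6, the α-myosin heavy chain, lay between 12582 and 18634 and Tnnt2, cardiac troponin T, between 15190 and 20810. Markers of other cell types were present and uneven: summed lung epithelial signal ran from 327 to 4752, with Sftpc, surfactant protein C, at a mean of 862 in controls, and the 14 tested leukocyte markers were all above the control mean at each dose (medians 0.29, 0.37 and 0.39 log2), with Cd74 called at 1.5 and 6 µg/kg and Plac8 at 6. Of the proliferation markers 5, 3 and 4 of 22 tested were above the control mean (medians -0.07, -0.17 and -0.14). Of the erythroid markers 7, 7 and 6 of 9 were, and limma called 0 in either list. The counts at an unadjusted p under 0.05 were 4, 10 and 12 of 14 for leukocyte markers, all higher. They were 3, 4 and 5 for proliferation and 1, 0 and 0 for erythroid markers. Of all tested probe sets, 12.6%, 5.72% and 9.15% had such a p, and limma called 0.210%, 0.0247% and 0.0741%.

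**Figure D1:**
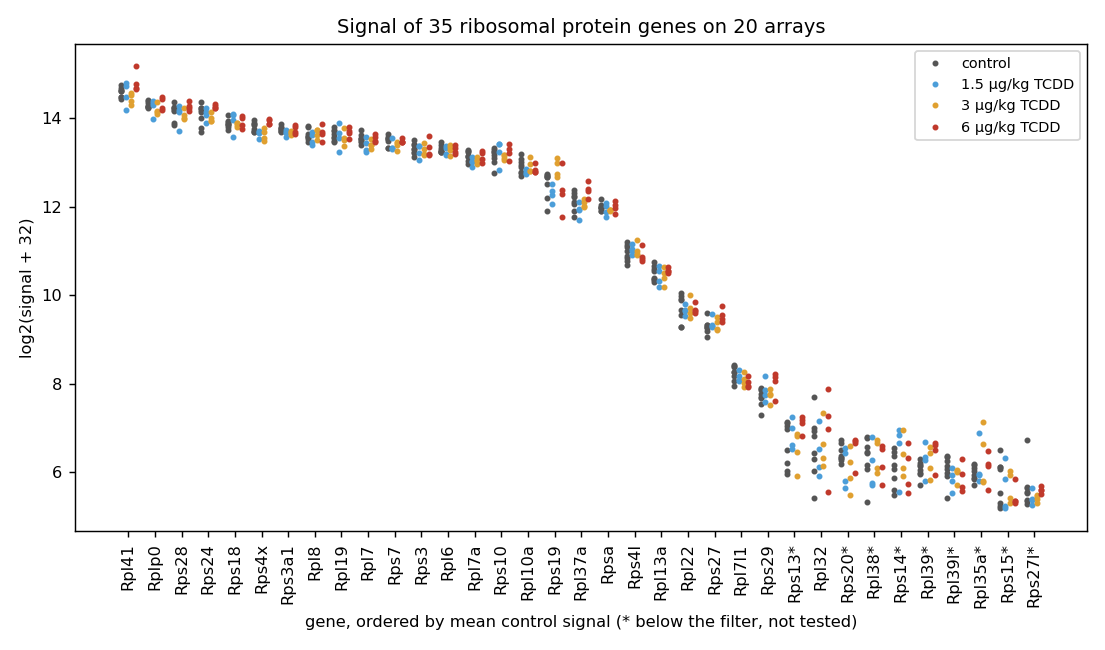
Signal of the 35 ribosomal protein genes on the 20 arrays, as log2(signal + 32) on the vertical axis, with genes ordered by mean control signal; each point is an array, coloured by dose. Each dose overlaps the controls for each gene shown, from Rpl41 at 24622 in controls down to Rps27l at 20.4.

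Signals of the ribosomal protein genes in control hearts spanned the whole range of the array. Rpl41, which encodes the smallest ribosomal protein, had the highest mean, 24622 ± 1945 (SD, n = 8), and ranked 6 of all probe sets. Rplp0, the base of the acidic stalk of the large subunit, followed at 20069 ± 978 (rank 12), and Rps28, Rps24 and Rps18 of the small subunit stood at 18156 ± 2157, 17464 ± 2706 and 15013 ± 1115. In all, 11 of the genes were among the 100 brightest probe sets and 19 of the 26 tested lay among the brightest 810 of the tested probe sets. Signals of different probe sets depend on their probes as well as on the mRNA, so this order is that of the probe sets and not of the mRNAs.

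Several probe sets for abundant ribosomal proteins read near the floor of the array. The dimmest genes were Rps27l, an S27-like protein gene, at 20.4 ± 21.8 (SD, n = 8), Rps15 at 25.2 ± 20.1, Rpl35a at 31.4 ± 7.17, Rpl39 at 35.4 ± 8.15 and Rpl39l, an L39-like copy, at 35.9 ± 13.0. Rps14, Rpl38, Rps20 and Rps13 stood at 37.4, 51.5, 54.3 and 71.6, and none of these 9 passed the filter. Their group means at 1.5, 3 and 6 µg/kg stayed between 10.8 and 106, and no level of these mRNAs can be read from such signals. Rpl32, at 73.2 ± 50.3 in controls, passed the filter with 5 arrays, spread over all 4 groups, and its intervals were the widest of the 26.

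Genes with several probe sets gave different readings. Rps28 had signals of 18156, 12488 and 127 in controls from its 3 probe sets. Rps24 had 17464 from a probe set that carries the same sequence accession as the brightest Rpl7 probe set, and 80.5 from its other one, so the gene behind the brighter signal is uncertain. Deviations of the brighter Rps24 probe set from the group means correlated with those of Rps28 at 0.78 over 20 arrays and with those of Rpl7 at -0.03. Rpl7 had a mean correlation of only 0.03 with the other genes, so these values do not settle which gene is read. Rpl7 read 11868 and 21.7, Rpl19 12545 and 65.9, Rpl10a 7743 and 3681, Rpl22 816 and 120, and Rps4l, an S4-like copy, 1953 and 87.9. Rps4x, the X-linked S4 gene, had 5 probe sets at 14211, 64.1, 46.8, 33.6 and 13.2. The probe sets for Rpl41, Rps28, Rpl7 and Rps4l are marked by the manufacturer as shared among similar transcripts, and ribosomal protein genes have many processed copies in the genome, so their signals can include such copies.

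The first question was whether ribosomal protein mRNAs differed from controls at each dose. No gene did so by the threshold used throughout, a limma p-value adjusted by the Benjamini-Hochberg method over 8097 probe sets under 0.05: the count was 0 of 26 at 1.5, at 3 and at 6 µg/kg, where 0.210%, 0.0247% and 0.0741% of all tested probe sets were called. At an unadjusted p under 0.05 the counts were 1, 2 and 4 of 26, against 12.6%, 5.72% and 9.15% of all tested probe sets. No gene had all arrays of a dose above all controls, or all below, which 1.06% and 0.395% of the probe sets did at 1.5, 0.321% and 0.222% at 3, and 0.494% and 0.358% at 6 µg/kg. The intervals were narrow: the 95% interval of the difference lay within 1.25-fold for 21, 21 and 17 of the 26 genes at the 3 doses, and within 1.5-fold for 25, 24 and 24. Over all tested probe sets, 23.4%, 29.7% and 26.7% lay within 1.25-fold and 75.1%, 79.4% and 75.3% within 1.5-fold.

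The signs of the small differences were uneven between doses. At 1.5 µg/kg 6 of 26 genes were above the control mean and the median difference was -0.06 log2, at 3 µg/kg 7 were above with a median of -0.06, and at 6 µg/kg 15 were above with a median of 0.03. The medians over all tested probe sets were 0.01, 0.00 and -0.00. The 13 large-subunit genes were above the control mean in 0, 3 and 7 cases and the 13 small-subunit genes in 6, 4 and 8. The 3 comparisons share the control arrays. Under quantile normalization, which gives every array one distribution, 9, 14 and 14 of 26 genes were above the control mean and the median at 3 µg/kg was 0.00, so the sign of that median depends on the scaling.

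**Figure D2:**
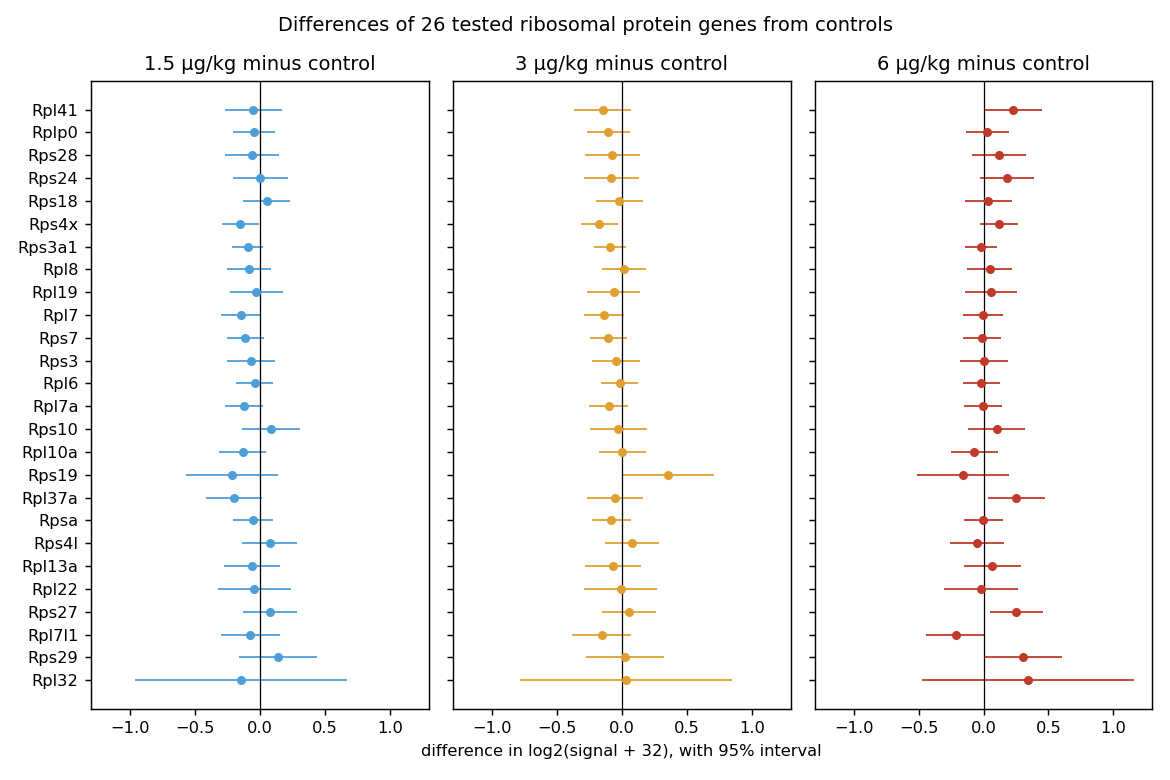
Difference of each of the 26 tested genes from the mean of 8 controls at 1.5, 3 and 6 µg/kg TCDD, on the log2(signal + 32) scale, with its 95% interval from limma; genes are ordered by signal, brightest at the top. Intervals that leave out 0 belong to Rps4x at 1.5 µg/kg, Rps4x and Rps19 at 3, and Rpl37a, Rpl41, Rps27 and Rps29 at 6, and none has an adjusted p under 0.05.

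At 6 µg/kg the lowest p-values belonged to both subunits. Rps27, a zinc-finger protein of the small subunit, had a control signal of 498 to 742 with a median of 591. Its signals at 6 µg/kg were 719, 829.01, 640.1 and 677, and the groups overlapped. The difference was 0.25 ± 0.10 log2 (SE; limma adjusted p = 0.472), against 0.08 and 0.05 at 1.5 and 3 µg/kg. Rps29, another small-subunit zinc-finger protein, read 250, 264, 235 and 164 at 6 µg/kg against 124 to 205 (median 181) in controls, so 3 of its 4 arrays lay above every control. Its difference was 0.31 ± 0.14 log2 (limma adjusted p = 0.537), against 0.14 and 0.03 at the lower doses.

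Rpl37a, a zinc-finger protein of the large subunit, read 3433 to 5273 with a median of 4545 in controls. It read 3280, 3919, 3864 and 4386 at 1.5 µg/kg, 4573, 4010, 4091 and 4397 at 3, and 5183, 5323, 6087 and 4588 at 6 µg/kg. The array values at 6 µg/kg overlapped those of the controls, while all 4 lay above every array of the lower doses. The difference from controls was -0.20 ± 0.10 log2 at 1.5 µg/kg, -0.05 ± 0.10 at 3 and 0.25 ± 0.10 at 6 (limma adjusted p = 0.442, 0.990 and 0.505).

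The control numbers mattered for Rpl37a. Controls 1 to 4 read 3791, 3433, 4217 and 4362 and controls 5 to 8 read 5044, 4728, 5273 and 4813, without overlap. The 2 sets differed by -0.33 ± 0.10 log2 (limma adjusted p = 0.0992). The difference at 6 µg/kg was 0.42 ± 0.11 log2 from controls 1 to 4 alone, with a limma adjusted p of 0.0460, and 0.09 ± 0.10 from controls 5 to 8 alone (adjusted p = 0.981). At 1.5 µg/kg the difference was -0.03 from the first set and -0.37 from the second.

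Rpl41 read 22139 to 27487 with a median of 25105 in controls. It read 25978, 25766, 36889 and 27679 at 6 µg/kg, 22617, 28164, 18404 and 26815 at 1.5, and 21329, 20060, 23518 and 24089 at 3 µg/kg. Array 3 of the 6 µg/kg group stood above every other array. The difference from controls at 6 µg/kg was 0.23 ± 0.11 log2 (limma adjusted p = 0.532), 0.11 log2 without array 3 and 0.11 log2 under quantile normalization.

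Rps4x read 13095 to 15756 with a median of 14200 in controls. The dose arrays read 13226, 13293, 11676 and 12943 at 1.5 µg/kg, 13132, 11993, 14061 and 11309 at 3, and 14869, 14826, 16146 and 15797 at 6 µg/kg. Both lower doses had means below the control mean, by -0.15 ± 0.07 and -0.17 ± 0.07 log2, and the highest dose a mean above it, by 0.12 ± 0.07 (limma adjusted p = 0.373, 0.779 and 0.603). Arrays of the lower doses overlapped the controls and lay below all arrays of the 6 µg/kg group.

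Rps19, a small-subunit protein whose loss causes Diamond-Blackfan anaemia in people, stood apart at 3 µg/kg. It read 6460, 8071, 6770 and 8661 there, against 3785 to 6739 (median 6482) in controls, 5196, 4906, 4230 and 5773 at 1.5 and 4944, 5234, 3471 and 8055 at 6 µg/kg. The difference from controls at 3 µg/kg was 0.36 ± 0.17 log2 (limma adjusted p = 0.859), and at 1.5 and 6 µg/kg it was -0.21 and -0.16. The 6 µg/kg arrays alone ran over more than the range of the controls.

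Rpl7l1, an L7-like protein gene, had the lowest difference at 6 µg/kg, -0.22 ± 0.11 log2, with 95% interval -0.44 to 0.01 (limma adjusted p = 0.560). It read 229, 258, 212 and 213 there and 215 to 310 in controls. Its parent gene Rpl7 differed by -0.15, -0.14 and -0.00 log2 at the 3 doses. Rps4l differed by 0.07, 0.08 and -0.05 log2, against -0.15, -0.17 and 0.12 for Rps4x.

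The other genes often used as references or discussed outside the ribosome showed small differences. Rplp0 differed from controls by -0.05, -0.11 and 0.03 log2 at the 3 doses, with signals of 15980 to 22620 over all exposed arrays. Rpl13a, which is also known for silencing inflammatory mRNAs when released from the ribosome, differed by -0.06, -0.07 and 0.07 log2. Rps3, which also acts in DNA repair, differed by -0.07, -0.04 and 0.00, and Rpsa, also a laminin receptor, by -0.05, -0.08 and -0.00. Rpl10a, for comparison, differed by -0.13, 0.00 and -0.07, Rpl8 by -0.09, 0.02 and 0.05, Rps10 by 0.08, -0.03 and 0.10, and Rpl32 by -0.15, 0.03 and 0.34 with intervals reaching 1.16. None had an adjusted p under 0.05 in limma. The second Rpl10a probe set, at 3681 in controls, differed by -0.12, -0.14 and 0.28 log2 (limma adjusted p = 0.775, 0.956 and 0.572). Its sign at 6 µg/kg was opposite to that of the brightest.

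**Figure D3:**
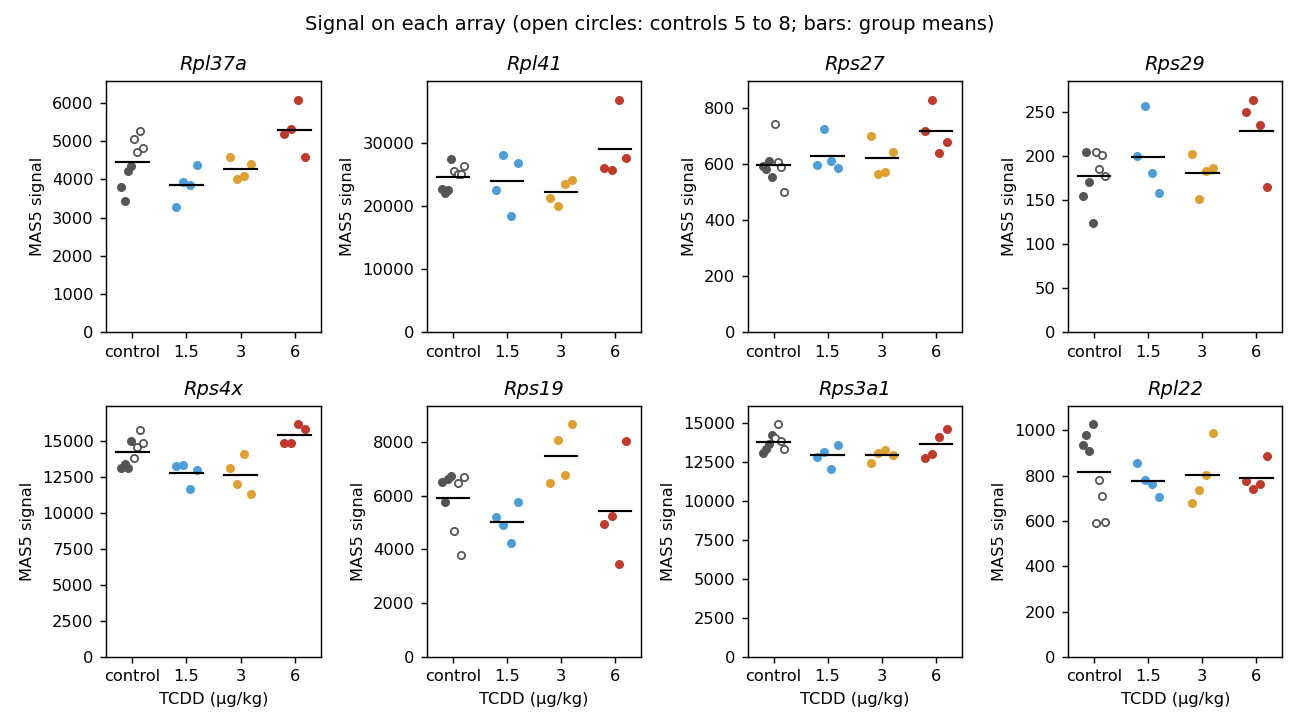
MAS5 signal of 8 genes on each array, by TCDD dose in µg/kg; filled and open grey circles are controls 1 to 4 and 5 to 8, coloured circles the exposed arrays, and bars the group means. Rpl37a and Rps4x at 6 µg/kg lie above both lower doses, Rps19 is highest at 3 µg/kg, Rps3a1 hardly varies, and the 2 sets of controls are apart for Rpl22 and Rpl37a.

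Comparisons between doses ask whether the genes differ along the dose range. They do not use the control means, but the controls enter the common estimate of the spread. The 6 µg/kg hearts had higher signals than the 1.5 µg/kg hearts for 23 of 26 genes, with a median difference of 0.10 log2 against 0.00 over all tested probe sets, and higher signals than the 3 µg/kg hearts for 20 of 26, with a median of 0.11 against -0.01. No gene passed limma's adjusted threshold in either comparison, where 0.346% and 0.0371% of all tested probe sets did. At an unadjusted p under 0.05 there were 3 and 5 of 26, against 15.6% and 11.6%. Every 6 µg/kg array lay above every 1.5 µg/kg array for 2 of 26 genes, Rpl37a and Rps4x, against 3.59% of all tested probe sets, and above every 3 µg/kg array for 4, Rpl37a, Rpl41, Rps24 and Rps4x, against 3.58%. With quantile normalization 17 and 15 of 26 genes were higher and the medians were 0.02 and 0.03 log2.

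Rpl37a had the lowest adjusted p between doses. It was 1.37-fold higher at 6 than at 1.5 µg/kg, 0.45 ± 0.12 log2 (95% interval 0.20 to 0.70, limma adjusted p = 0.0835). Rps4x differed by 0.27 ± 0.08 log2 (limma adjusted p = 0.110) and Rpl41 by 0.28 ± 0.12 (0.273). From 3 to 6 µg/kg, Rps4x differed by 0.29 ± 0.08 log2 (limma adjusted p = 0.176), Rpl41 by 0.37 ± 0.12 (0.248), Rpl37a by 0.30 ± 0.12 (0.340) and Rps19 by -0.52 ± 0.20 (0.317). The call for Rpl37a between 6 and 1.5 µg/kg turned on the fit. limma with array weights gave an adjusted p of 0.0299, and called 181 of all tested probe sets in place of 28. The fit without the 4 arrays of highest β-actin 3′ to middle ratio gave 0.0219, with 137 called. Those arrays, controls 1, 2 and 6 and array 4 at 6 µg/kg, were chosen after seeing the data. With the mean 3′ to 5′ ratio of β-actin and Gapdh as a covariate, limma's smallest adjusted p over the 26 genes was 0.197. Under that fit 0 of all tested probe sets were called, in place of 28.

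Between 3 and 1.5 µg/kg 13 of 26 genes were higher and the median was -0.00 log2. The limma count was 0 of 26 (0% of all tested probe sets), and 1 gene, Rps19, had an unadjusted p under 0.05 (2.79% of all). Rps19 was also the 1 gene whose 3 µg/kg arrays all lay above the 1.5 µg/kg arrays (0.865% of all tested probe sets), with a difference of 0.57 ± 0.20 log2 and a limma adjusted p of 0.9999.

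A linear slope over dose, with controls at 0, called 0 of 26 genes in limma (0.0618% of all tested probe sets), and 3 had an unadjusted p under 0.05 (7.22% of all). These were Rps27 at 0.04 ± 0.02 log2 per µg/kg (adjusted p = 0.612), Rpl37a at 0.04 ± 0.02 (0.680) and Rpl7l1 at -0.04 ± 0.02 (0.684). Over the exposed arrays alone the Rpl37a slope was 0.10 ± 0.02 log2 per µg/kg (limma adjusted p = 0.0245). With controls 1 to 4 as the only controls it was 0.08 ± 0.02 (limma adjusted p = 0.0273). These fits called 219 and 165 of all 8097 probe sets, in place of 5.

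One array carried much of the low side at 1.5 µg/kg. The mean of the 26 genes, each centred on its own mean, was -0.20 log2 on array 3 of that group, the lowest of the 20, against -0.03, 0.01 and 0.01 on its other arrays. The same array had the lowest summed cardiomyocyte marker signal, 212843 against 253862 to 285590 in the controls and 268309 to 282591 on the other 1.5 µg/kg arrays, and the highest summed liver marker signal, 4336. Without it the median difference at 1.5 µg/kg was -0.02 log2 with 11 of 26 genes above the control mean, and the 6 against 1.5 µg/kg median was 0.06 log2 with 17 of 26 higher. Over the groups, the centred mean was 0.01 ± 0.06 (SD, n = 8) in controls, -0.05 ± 0.10 (n = 4) at 1.5, -0.03 ± 0.03 at 3 and 0.07 ± 0.04 at 6 µg/kg. Each dose overlapped the controls, and the 6 µg/kg arrays (0.02 to 0.10) lay above all arrays of both lower doses (at most 0.01 and -0.01). That mean includes Rpl32, which lies near the floor of the array. Over the 19 genes among the brightest 810 the 6 µg/kg arrays ran from -0.01 to 0.18. There they overlapped both lower doses, which reached 0.04 and 0.03.

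Cardiomyocyte markers had medians of the same sign as the ribosomal protein genes at each dose. The 17 tested markers had medians of -0.03, -0.09 and 0.08 log2 at 1.5, 3 and 6 µg/kg, with 6, 2 and 12 of them above the control mean. limma called 0 of them. At an unadjusted p under 0.05 there were 3, 1 and 0, against 12.6%, 5.72% and 9.15% of all tested probe sets. Their summed signal was 212843 to 282591 at 1.5, 230429 to 259703 at 3 and 256297 to 313946 at 6 µg/kg, against 253862 to 285590 in controls. The part of these markers, and of the lung, liver and leukocyte markers, in the ribosomal protein differences was not tested, and in RNA from whole hearts fewer cells of a type and less RNA per cell cannot be told apart.

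**Figure D4:**
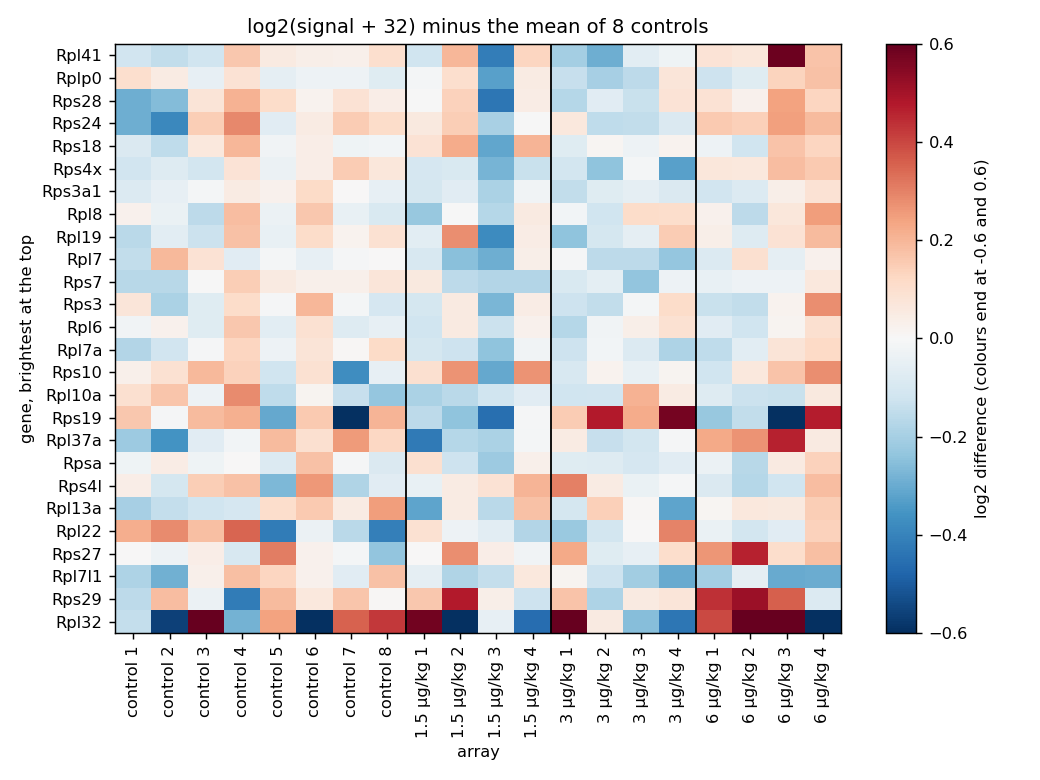
Difference of each array (columns) from the mean of 8 controls for the 26 tested genes (rows, brightest at the top), in log2(signal + 32); red is higher, blue lower, and the colours end at 0.6. Array 3 at 1.5 µg/kg is blue for most bright genes, and Rps29 and Rpl32 vary without the rest.

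The selection left out 38 probe sets that carry a ribosomal protein symbol among several symbols, and 33 of these passed the filter with a median control signal of 10431. None was called by limma at any dose. At an unadjusted p under 0.05 there were 6, 0 and 2, against 12.6%, 5.72% and 9.15% of all tested probe sets. Of the 33, 5 were above the control mean at 1.5 µg/kg, 6 at 3 and 26 at 6 µg/kg, with medians of -0.13, -0.08 and 0.07 log2. Between 6 and 1.5 µg/kg 30 of the 33 were higher, with a median of 0.16 log2. limma called 0, against 0.346% of all tested probe sets, and 10 had an unadjusted p under 0.05, against 15.6%. These values were taken under the trimmed-mean scaling only, not under quantile normalization.

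The spread between arrays was small for most of the genes. The SD of log2(signal + 32) within groups had a median of 0.147 over the 26 genes, against 0.227 over all tested probe sets and 0.158 over the brightest 810. It was under the median of all tested probe sets for 23 of the 26, and under the median of the probe sets in its own decile of mean signal for 17. For the 19 genes among the brightest 810 the median SD was 0.142.

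Rps3a1, a small-subunit protein at the mRNA exit, varied least. Its signals ran from 13073 to 14949 in controls with a median of 13772, from 12104 to 13633 at 1.5, 12486 to 13302 at 3 and 12755 to 14663 at 6 µg/kg. Its SD of 0.0679 log2 ranked 2 of 8097 probe sets from the lowest. Rpl6 and Rps7 followed at 0.0957 and 0.0994, with Rps4x next. At the other end stood Rpl32 at 0.706, Rps19 at 0.316, Rpl22 at 0.234 and Rps29 at 0.221. Rpl32 lies near the floor of the array, whereas Rps19, at 5905 in controls, had a spread above that of 95.6% of the probe sets in its own decile.

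**Figure D5:**
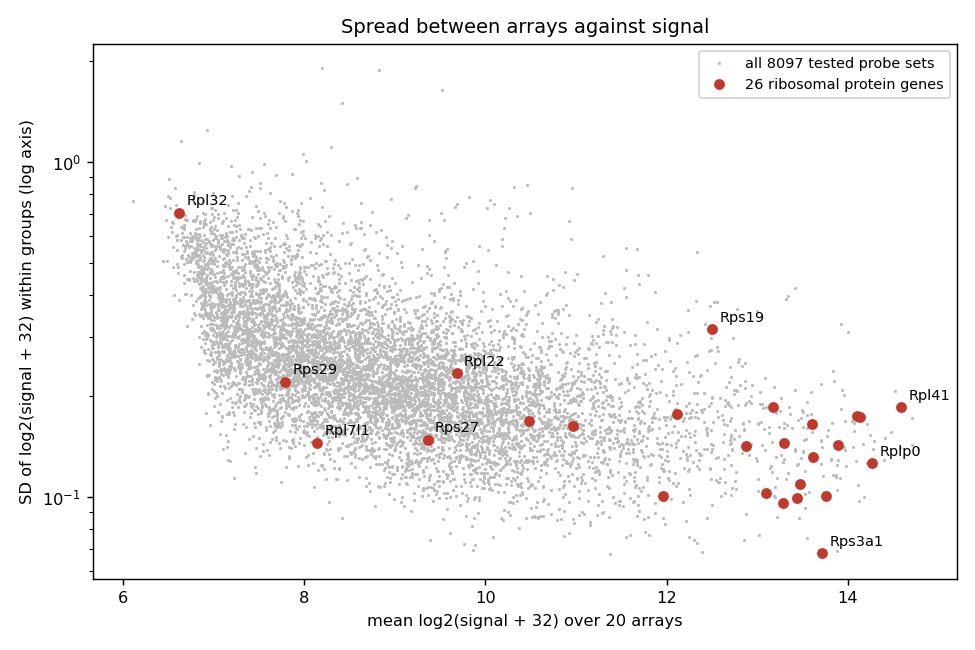
SD of log2(signal + 32) within groups (log axis) against mean log2(signal + 32) for 8097 tested probe sets (grey) and 26 ribosomal protein genes (red). Most of the genes lie low and to the right, Rps3a1 at 0.0679 is near the floor of all probe sets, and Rps19 at 0.316 and Rpl32 at 0.706 lie high.

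Deviations from the group means were shared among the bright genes. Over 325 pairs of the 26 genes the median correlation across the 20 arrays was 0.21, and over the 171 pairs of the 19 brightest it was 0.38, against 0.06 over pairs of all the brightest 810 probe sets. These points share arrays and scaling, so the correlations are descriptions. Rps18 followed Rps28 most closely (r = 0.87), then Rpl8 followed Rps3 (0.84) and Rpl6 followed Rpl8 (0.83). Rps18 had the highest mean correlation with the other genes, 0.40, whereas Rps27, Rps29 and Rpl32 had means of -0.08, -0.17 and -0.22. Rpl32, near the floor, ran against Rpl8 (r = -0.83).

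The comparison of the control numbers asked whether the controls form one group. Controls 1 to 4 differed from controls 5 to 8 in 1 of 26 genes in limma, against 1.57% of all tested probe sets, and in 4 of 26 at an unadjusted p under 0.05, against 14.9%. The gene was Rpl22, a large-subunit protein also known as a binder of viral RNA. It read 936, 982, 910 and 1027 in controls 1 to 4 and 590, 780, 712 and 594 in controls 5 to 8, with no overlap. The difference was 0.51 ± 0.11 log2 (limma adjusted p = 0.0259). It was between 0.46 and 0.59 log2 when any 1 control was left out, but the adjusted p rose above 0.05 without control 1, 2, 4, 5, 7 or 8 (0.0675, 0.0881, 0.0506, 0.0949, 0.0588 and 0.0875).

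The second Rpl22 probe set ran the other way. It read 90.3 ± 30.6 (SD, n = 4) in controls 1 to 4 and 149 ± 59.3 in controls 5 to 8, and its deviations from the group means correlated with those of the first at -0.67 over 20 arrays. The mean signals of the exposed groups lay between those of the 2 control sets on the first probe set. They were 777 ± 62.2 (n = 4), 803 ± 134 and 791 ± 64.4 for 1.5, 3 and 6 µg/kg. On the second probe set they were 124 ± 24.3, 94.5 ± 53.5 and 200 ± 43.4, the last above the means of both control sets. The other genes with an unadjusted p under 0.05 between the sets were Rpl10a (0.26), Rpl13a (-0.28) and Rpl37a (-0.33 log2). The brightest Rpl10a probe set read 8437 ± 767 (SD, n = 4) in controls 1 to 4 and 7049 ± 517 in controls 5 to 8. Its second probe set read 3561 ± 1042 and 3800 ± 577, so the means ran the other way. Between the control sets 1 of 6 tested liver markers was higher in controls 1 to 4. An unadjusted p under 0.05 belonged to 5 of the 6, all lower, against 14.9% of all tested probe sets. None of 3 lung markers was higher, with a median of -1.01 log2, and 0 of either list were called by limma. Of 22 proliferation markers 16 were higher, with a median of 0.15 log2, and limma called 1, against 1.57% of all tested probe sets. An unadjusted p under 0.05 belonged to 5 that were higher and 1 that was lower. Of 9 erythroid markers 2 were higher, 0 were called and 3, all lower, had such a p. The part of any of these markers in the differences was not tested.

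Other genes of translation were described beside the ribosomal proteins. Of 18 genes of translation factors and TOP mRNAs on the array, 16 were tested and 0 were called by limma at any dose. An unadjusted p under 0.05 belonged to 1, 2 and 0, all lower, against 12.6%, 5.72% and 9.15% of all tested probe sets. Pabpc1, the poly(A)-binding protein, differed by -0.26 ± 0.12, -0.26 ± 0.12 and 0.16 ± 0.12 log2 at the 3 doses (limma adjusted p = 0.373, 0.854 and 0.685). Npm1, nucleophosmin, differed by -0.12, -0.15 and -0.02, and Eef2, the translocation factor, by 0.17, 0.09 and -0.04. The medians of the list were -0.01, -0.10 and -0.00 log2.

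Ribosome assembly and the pathway that controls it showed the same absence of calls. Of 62 ribosome biogenesis genes, 60 were tested and 0 were called at any dose. An unadjusted p under 0.05 belonged to 6, 5 and 6, against 12.6%, 5.72% and 9.15% of all tested probe sets. At 6 µg/kg Utp14a, of the small-subunit processome, differed by -0.49 ± 0.14 log2, Exosc8, of the RNA exosome, by 0.52 ± 0.18 and Tsr1, of small-subunit maturation, by -0.35 ± 0.13 (limma adjusted p = 0.278, 0.396 and 0.451). Of 48 initiation factor and mTOR pathway genes, 44 were tested and 0 were called. An unadjusted p under 0.05 belonged to 6, 3 and 2, against the same shares of all tested probe sets. Eif3d, which can bind the cap, differed by -0.34 ± 0.10 log2 at 6 µg/kg, and at 1.5 µg/kg Eif4ebp2, the repressor of cap binding that mTOR controls, differed by 0.31 ± 0.10 and Eif1ax, of start-site scanning, by -0.25 ± 0.09 (limma adjusted p = 0.319, 0.210 and 0.251). Of the 3 Rps6k kinases left out of the genes, 2 were tested and 0 were called. Rps6kb2, the S6 kinase that mTOR activates, differed by 0.43 ± 0.20, 0.27 ± 0.20 and -0.34 ± 0.20 log2 (limma adjusted p = 0.374, 0.937 and 0.603), and Rps6kc1 by -0.06, 0.05 and -0.09.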

How the data were processed

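The deposited table held MAS5 signal intensities, 1 per probe set and array, which the authors made with MAS5 per the submitters' processing notes; its version and settings are not given in the sources used here. Of 12488 probe sets, 66 Affymetrix controls were left out. Signals were rescaled to a 2% trimmed mean of 500 per array and taken as log2(signal + 32), which understates differences of dim genes. Probe sets with at least 4 arrays at or above their own 40th percentile were tested (8097). limma 3.58.1 (R 4.3.3; lmFit, eBayes with an intensity trend, two-sided, Benjamini-Hochberg over all tested probe sets) was fitted to the 20 arrays as 4 groups; figures used matplotlib 3.10.9. Precision is limited by how many arrays there were. The fit was tested on simulated data. The genes, the lists and the alternatives were chosen with earlier results of these data known.

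Named genes were those called in any comparison, the 4 largest differences in each direction at each dose, the 5 brightest and dimmest, the 4 largest and smallest SDs, some members fixed by name, like-named copies with their parent genes, genes whose probe sets differ by over 2-fold, and the 3 smallest p-values of each other list of translation genes. Same-numbered arrays of different groups did not deviate together (correlations -0.22 to 0.21, mean 0.00), so no block was used. Promoter sequences are from RefSeq; symbols come from the array's GEO annotation, which can be old.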

Additional observations from a re-analysis of the deposited data

Results flagged for a closer look

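Rps7, a small-subunit protein gene, gave both flagged values. Array 1 at 1.5 µg/kg read 11944, far above the other 3 arrays of its group, which lay between 10130 and 10282. Array 4 at 6 µg/kg read 11977, far above the other 3, which lay between 11133 and 11229. Both values lie inside the control range of 10217 to 12686. These were 2 of 112 groups examined for a value far from the rest, and chance alone flags about 1 in 20 groups.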

How the results depend on the processing

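The difference of a single gene with no call counts here as unchanged where it moved by at most 1 standard error. A median counts as unchanged where it moved by at most the SD between arrays, within groups, of the genes' mean. For the slope that SD was divided by 6. A count changed where it moved by over 1.5-fold or to or from 0. The median SD was judged by the SD of its values in the 4 groups. Counts of called genes at 1.5 and 3 µg/kg against controls, and between doses for 3 against 1.5 and 6 against 3 µg/kg, were 0 under every alternative run. At 6 µg/kg against controls, at 6 against 1.5 µg/kg and for the slope, the changes of a count concern Rpl37a: 1 gene was called at 6 µg/kg against controls 1 to 4 alone, 1 at 6 against 1.5 µg/kg with array weights, and 1 there without the 4 arrays of highest β-actin ratio, an alternative chosen after seeing the data. For the slope over dose the count was 1 with controls 1 to 4 alone, 1 with the exposed doses alone and 1 with the replicate block, which also uses controls 1 to 4 alone (adjusted p = 0.0390); the block changed no other count, and the numbers do not pair the arrays. Calls over all 8097 probe sets also rose under these fits. At 6 µg/kg against controls 1 to 4 alone they were 187 in place of 6. For 6 against 1.5 µg/kg they were 181 with array weights and 137 without the 4 arrays, in place of 28. For the slope they were 165 with controls 1 to 4 alone, 219 with the exposed doses alone and 129 with the block, in place of 5. The median slope was 0.0232 log2 per µg/kg over the exposed doses alone. Quantile normalization gave medians of 0.0205 log2 for 6 against 1.5 µg/kg and 0.0252 for 6 against 3 µg/kg, and a median SD of 0.123. The median at 6 µg/kg against controls was between -0.02 and 0.06 log2 when any 1 array was left out, and -0.00 without the 4 arrays. Leaving out each control gave 0 to 1 called genes between the control sets, the gene being Rpl22. With only the groups compared in the fit, 52 of all probe sets in place of 28 were called for 6 against 1.5 µg/kg, and again 0 of the 26 genes. With the mean 3′ to 5′ ratio as a covariate 0 of all probe sets were called there. No called value turned its sign. Signal near the floor limits 9 untested genes and Rpl32. The cause of these changes was not tested.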
